A study of Homo sapiens with 6 samples.

Results

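The zinc finger genes of chromosome 19 whose symbols begin with ZNF and a digit were examined after knockdown of PARP1 in HK-2 cells. They were taken from the deposited count table as its protein-coding genes on that chromosome with such a symbol, and 242 of the 30403 genes in the table met the rule. The rule itself uses the gene type, chromosome and symbol and no expression value. HK-2 is an established human cell line derived from the proximal tubule of the kidney. Cells were transfected with the aid of Lipofectamine 2000 and harvested 48 h later, and polyadenylated RNA was sequenced. The shPARP1 group (3 libraries) received a plasmid for an shRNA against PARP1, and the shCtrl group (3 libraries) a control shRNA plasmid, so that both groups share the line, the transfection and the harvest time. A transient transfection leaves a mixture of cells with and without plasmid, and fewer cells expressing a gene cannot be told apart from less RNA of that gene per cell in these bulk libraries.

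Most of the genes encode proteins with tandem zinc fingers of the Krüppel type, which bind DNA, and many carry a KRAB domain at the start of the protein. KRAB proteins recruit the scaffold TRIM28, which brings in the histone methyltransferase SETDB1, heterochromatin proteins and a deacetylase complex, and many of them silence transposable elements. The genes lie in tandem clusters that arose by repeated duplication, and PARP1, the main nuclear poly(ADP-ribose) polymerase, binds DNA breaks and chromatin.

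PARP1 stood at 262, 263 and 259 CPM in shCtrl and at 26.9, 26.2 and 28.8 CPM in shPARP1, so that 10.4% ± 0.524 (SD, n = 3) of the control level remained. CPM are TMM-scaled throughout, that is, counts divided by a library size that edgeR's TMM method adjusts. The shallowest library held 24429683 counts (shCtrl) and the deepest 32809303 (shPARP1), each shPARP1 library being deeper than each shCtrl library, and 3 counts are worth between 0.0914 and 0.123 CPM. Of 17 proximal tubule and epithelial markers, 12 could be tested, of which 2 were higher (16.7%) and 8 lower (66.7%), against 27.3% and 28.5% of all tested genes. Markers such as PAX8 (417 to 345 CPM), CDH6 (446 to 215 CPM) and GGT1 (291 to 237 CPM) were well expressed and fell. The 2 higher markers, KRT8 (635 to 683 CPM) and KRT18 (240 to 361 CPM), were also well expressed. ANPEP, CUBN, LRP2, SLC22A6 and SLC34A1 stayed under 1 CPM. Of 12 markers of other cell types, 9 were in the table, and 6 of them (CD3E, CDH5, PECAM1, VWF, DCN and NPHS1) stayed under 1 CPM. The other 3 were called, PDGFRB (5.84 to 2.08 CPM) and LUM (14.8 to 7.72 CPM) as lower and CD68 (6.50 to 8.29 CPM) as higher. The summed level of those 9 ran from 25.8 to 29.5 CPM in shCtrl and from 18.2 to 19.3 CPM in shPARP1. The part of these marker differences in the results on the ZNF genes was not tested. The labels do not say whether replicates came from separate cultures, so that each p-value rests on library-to-library spread that may be technical.

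Chromosome 19 ZNF genes were weakly expressed, and those that changed after PARP1 knockdown mostly rose. Of the 242 genes, 216 had enough counts to be tested. The other 26 had means of at most 0.338 CPM and at most 56 counts over all 6 libraries. A gene was called at an adjusted p under 0.05 in edgeR's quasi-likelihood test over all 16040 tested genes. By this test 59 ZNF genes were higher in shPARP1 and 8 were lower, and 149 were not called. The 59 higher genes are 27.3% of those tested, and 27.3% of all tested genes were called higher, so that the share of rises is that of the background. The 8 lower genes are 3.70% of those tested, where 28.5% of all tested genes were called lower. In either direction 31.0% of the ZNF genes were called, against 55.7% of all tested genes. Without shPARP1 replicate 1 the number of lower genes was 4. At least 2-fold rises were called for 5 ZNF genes, which is 2.31% of those tested, beside 2.41% of all tested genes, and no ZNF gene was called at least 2-fold lower. The groups did not overlap in CPM for 81 of the tested ZNF genes (37.5%), against 60.1% of all tested genes.

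The median log2 fold change of the 216 genes was 0.21, with quartiles of -0.01 and 0.42 and a range from -0.94 to 1.42. Over all tested genes the median was -0.01, with quartiles of -0.35 and 0.32. The median of the ZNF genes stayed above 0 under both other scalings, at 0.22 with DESeq2's size factors and 0.24 with library totals. Summed over all 242 genes, the level was 1559, 1479 and 1544 CPM in shCtrl replicates 1 to 3, and 1752, 1722 and 1699 CPM in shPARP1. All 3 knockdown libraries lay above all 3 controls. Abundant genes weigh most in such a sum. Its group means were 1528 and 1724 CPM, and ZNF787 alone went from a mean of 97.9 to 161.7 CPM. The 252 ZNF genes of other chromosomes summed to 3007 ± 43.3 CPM in shCtrl and 3088 ± 26.6 CPM in shPARP1 (SD, n = 3). Of those 252 genes, 225 were tested, 49 were higher (21.8%) and 38 were lower (16.9%), with a median log2 fold change of 0.06. The other protein-coding genes of chromosome 19 had 830 tested, 338 higher (40.7%) and 230 lower (27.7%), with a median of 0.08. Their median level was 39.1 CPM, and of all tested genes at 20 CPM or more 42.2% were higher and 37.6% lower.

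**Figure D1:**
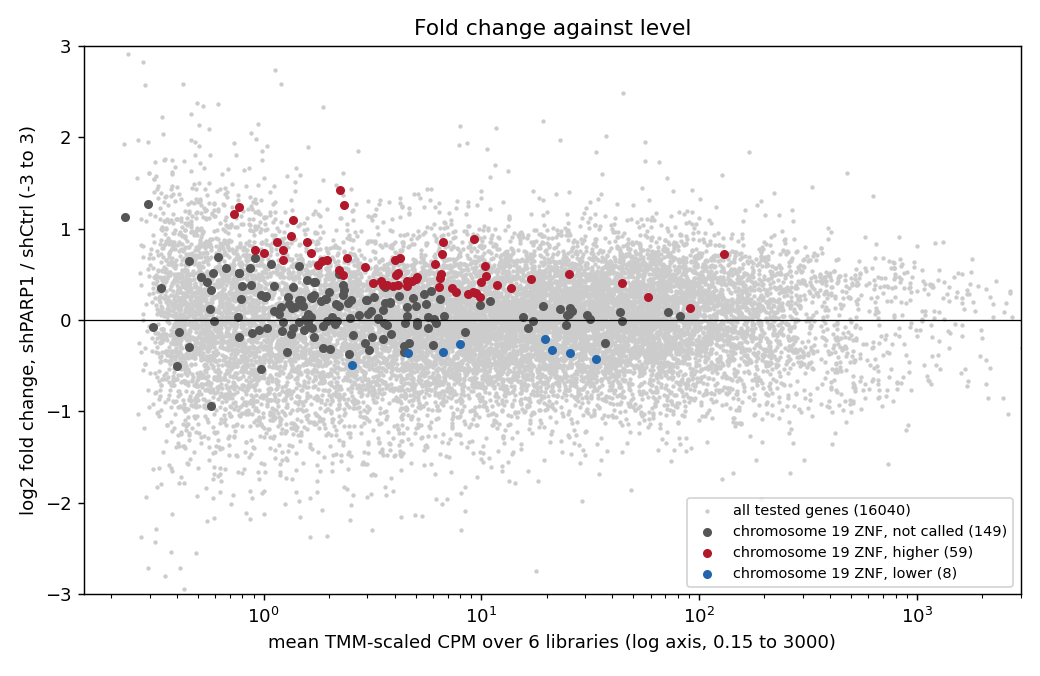
Each point is a tested gene, with its mean TMM-scaled CPM over 6 libraries (log axis) and its log2 fold change, shPARP1 over shCtrl; grey points are all tested genes and the larger points are chromosome 19 ZNF genes, of which 59 were called higher (red), 8 lower (blue) and 149 not called (dark grey). The ZNF genes crowd at low levels and mostly above 0; 30 genes lie outside the plotted range.

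The count of calls has to be read beside the level, since a gene with few counts is called less often. The tested ZNF genes had a median level of 2.65 CPM against 10.4 CPM over all tested genes, and a median SE of the log2 fold change of 0.19 against 0.10. Between 1 and 5 CPM lay 118 ZNF genes, of which 30 were higher (25.4%) and 2 were lower (1.69%). Of all tested genes in that range, 14.04% were higher and 22.7% were lower. Between 5 and 20 CPM, 21 of 44 ZNF genes were higher (47.7%) and 3 were lower (6.82%), against 27.7% and 32.0% of all genes. At 20 CPM or more the pattern differed: 5 of 21 ZNF genes were higher (23.8%) and 3 were lower (14.3%), against 42.2% and 37.6% of all genes. Below 1 CPM, 3 of 33 tested ZNF genes were higher (9.09%) and none was lower, against 8.31% and 8.23% of all genes. The ZNF genes of other chromosomes had 10 rises and 4 falls among 72 genes at 1 to 5 CPM, and 21 rises and 23 falls among 80 genes at 5 to 20 CPM. Without shPARP1 replicate 3 the rises at 1 to 5 CPM numbered 18 and the falls 4. That range also held 4 falls without shCtrl replicate 1, 1 without shCtrl replicate 2, shCtrl replicate 3 or shPARP1 replicate 1, and 0 without shPARP1 replicate 2. The falls at 5 to 20 CPM numbered 0 without shCtrl replicate 2 or shPARP1 replicate 1, and 1 without shPARP1 replicate 3.

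**Figure D2:**
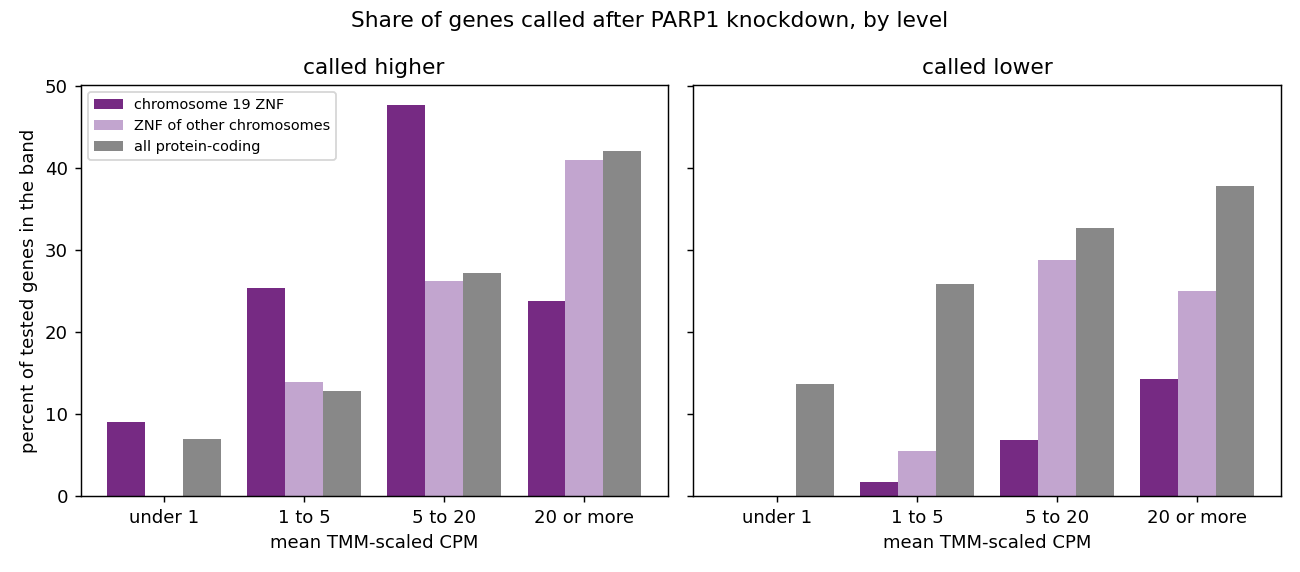
Bars give the percent of tested genes called higher (left) or lower (right) in 4 ranges of mean TMM-scaled CPM, for chromosome 19 ZNF genes, ZNF genes of other chromosomes and all protein-coding genes. Between 5 and 20 CPM, 47.7% of the chromosome 19 ZNF genes were called higher and 6.82% lower.

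The largest rises were found in genes of a few CPM. Rises and falls named by rule had to have groups that did not overlap, so that separate groups follow from the choice. ZNF229 lies on the minus strand at chr19:44417519-44448578 (GRCh38) and encodes a protein with 16 zinc fingers. It stood at 1.71, 0.539 and 1.42 CPM in shCtrl and at 3.31, 3.27 and 3.19 CPM in shPARP1. All knockdown libraries were above all controls, and the log2 fold change was 1.42 (SE 0.24, adjusted p = 1.07e-06). ZNF468, a KRAB gene on the minus strand at chr19:52838008-52890375, stood at 1.80, 1.19 and 1.15 CPM in shCtrl and at 3.13, 3.31 and 3.42 CPM in shPARP1. The groups were again apart, with a log2 fold change of 1.25 (SE 0.21, adjusted p = 8.76e-07). Its extent overlaps that of ZNF320 on the same strand. Of the exonic 50-base words of ZNF320, 99.5% recur in other annotated genes, most often in ZNF468. Of the words of ZNF468 itself 9.91% recur, most often in ZNF28, whose extent also overlaps it on the same strand. Reads may have been split between these genes, and the value of ZNF468 is uncertain for that reason. ZNF426 stood higher, at 6.35, 5.51 and 7.73 CPM in shCtrl and 11.9, 11.9 and 12.5 CPM in shPARP1. Its log2 fold change of 0.89 had a smaller error (SE 0.11, adjusted p = 4.62e-10). ZNF121, the next ZNF gene on the same strand, stood at 4.55, 4.51 and 5.88 CPM in shCtrl and at 8.23, 8.62 and 7.92 CPM in shPARP1. Both neighbours rose without overlap of the groups, and the log2 fold change of ZNF121 was 0.73 (SE 0.13, adjusted p = 1.64e-06). ZNF813 stood at 5.89, 3.31 and 5.04 CPM in shCtrl and at 7.01, 8.88 and 9.77 CPM in shPARP1 (log2 fold change 0.85, SE 0.15, adjusted p = 6.20e-06). These 5 genes passed the test under each of the 18 alternatives, which include leaving out each library.

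Rises in genes of about 1 to 2 CPM rested on 15 to 79 counts per library and were less firm. ZNF585B stood at 0.835, 0.694 and 1.08 CPM in shCtrl and at 1.34, 2.56 and 1.71 CPM in shPARP1 (log2 fold change 1.10, SE 0.28, adjusted p = 0.000705). Its neighbour ZNF585A stood at 0.627, 0.809 and 0.807 CPM in shCtrl and at 1.15, 1.04 and 1.58 CPM in shPARP1 (log2 fold change 0.74, SE 0.31, adjusted p = 0.0404). The groups did not overlap for either gene. The pair share sequence, in that 26.6% of the exonic 50-base words of ZNF585B and 18.3% of those of ZNF585A recur in other annotated genes, so that reads may have been split between them. Exons of ZNF585B also overlap ZNF383 on the opposite strand, which adds to the uncertainty. ZNF585A was not called without shCtrl replicate 1 (adjusted p = 0.112), shCtrl replicate 3 (0.0511), shPARP1 replicate 1 (0.0629) or shPARP1 replicate 3 (0.238). ZNF583 stood at 1.09, 0.886 and 0.807 CPM in shCtrl and at 1.73, 1.88 and 1.65 CPM in shPARP1, with a log2 fold change of 0.92 (SE 0.27, adjusted p = 0.00271). ZNF100 stood at 0.835, 1.54 and 0.999 CPM in shCtrl and at 2.004, 1.81 and 2.35 CPM in shPARP1, with a log2 fold change of 0.86 (SE 0.25, adjusted p = 0.00283). Both had groups that did not overlap, but ZNF100 overlaps exons of AC092364.2 on the opposite strand and is uncertain for that reason. ZNF709 stood at 0.919, 0.771 and 1.04 CPM in shCtrl and at 1.46, 1.75 and 1.44 CPM in shPARP1 (log2 fold change 0.77, SE 0.28, adjusted p = 0.0171). Its value is uncertain, because 92.0% of its exonic 50-base words recur in other annotated genes, most of them in the overlapping gene AC008758.1. It was not called without shCtrl replicate 2 (adjusted p = 0.0523) or shPARP1 replicate 2 (0.0781).

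ZNF253 and ZNF616, chosen after their values were seen because they complete the 5 rises of at least 2-fold, lay under 1 CPM on average. ZNF253 stood at 0.418, 0.616 and 0.346 CPM in shCtrl and at 1.18, 0.972 and 1.11 CPM in shPARP1 (log2 fold change 1.23, SE 0.36, adjusted p = 0.00260). ZNF616 stood at 0.543, 0.193 and 0.615 CPM in shCtrl and at 0.607, 1.07 and 1.38 CPM in shPARP1 (log2 fold change 1.17, SE 0.39, adjusted p = 0.00928). The groups overlapped for ZNF616 and not for ZNF253, whose exons overlap AC011477.3 on the opposite strand.

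Only 8 ZNF genes fell by this test, all of them by less than 2-fold. ZNF580, a short gene of 3 zinc fingers with no KRAB start, stood at 40.2, 38.3 and 37.4 CPM in shCtrl and at 32.4, 27.6 and 26.1 CPM in shPARP1. The groups did not overlap, the log2 fold change was -0.43 (SE 0.07, adjusted p = 2.60e-07), and the call held under all 18 alternatives. The extent of ZNF580 (chr19:55635016-55643469) overlaps that of ZNF581 on the same strand. Reads may have been split between these genes, and the value of ZNF580 is uncertain for that reason. ZNF8 stood at 29.1, 24.04 and 32.8 CPM in shCtrl and at 23.3, 22.1 and 21.7 CPM in shPARP1 (log2 fold change -0.36, SE 0.08, adjusted p = 0.000162). ZNF264 stood at 24.8, 19.5 and 26.3 CPM in shCtrl and at 18.2, 18.8 and 19.4 CPM in shPARP1 (log2 fold change -0.32, SE 0.08, adjusted p = 0.000920). In both genes shCtrl replicate 2 was the lowest control and lay just above the highest knockdown library. ZNF8 shares 22.8% of its exonic 50-base words with other annotated genes.

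The other falls were lost when single libraries were left out. ZNF792 had the largest, from 2.72, 2.93 and 3.23 CPM in shCtrl to 1.94, 1.98 and 2.42 CPM in shPARP1 (log2 fold change -0.49, SE 0.19, adjusted p = 0.0283). It was not called without shCtrl replicate 3 (adjusted p = 0.0943), shPARP1 replicate 1 (0.101) or shPARP1 replicate 2 (0.0885). ZNF554 went from 4.97, 5.55 and 5.00 CPM to 4.07, 3.34 and 4.67 CPM (log2 fold change -0.36, SE 0.15, adjusted p = 0.0343), and was not called without shCtrl replicate 2 (0.124), shPARP1 replicate 1 (0.0699) or shPARP1 replicate 2 (0.229). ZNF548 went from 6.60, 7.82 and 8.07 CPM to 5.34, 6.19 and 6.14 CPM (log2 fold change -0.35, SE 0.12, adjusted p = 0.0133), and was not called without shCtrl replicate 2 (0.0567), shCtrl replicate 3 (0.0677) or shPARP1 replicate 1 (0.0879). None of these 3 genes had overlapping groups. ZNF114 went from 8.69, 8.28 and 9.07 CPM to 7.41, 7.52 and 6.75 CPM (log2 fold change -0.26, SE 0.11, adjusted p = 0.0399), and each of the 6 omissions ended its call (0.055 to 0.158). ZNF446 went from 20.8, 21.8 and 20.3 CPM to 17.2, 19.8 and 17.5 CPM (log2 fold change -0.20, SE 0.08, adjusted p = 0.0265), and was not called without shCtrl replicate 2 (0.106), shPARP1 replicate 1 (0.118) or shPARP1 replicate 3 (0.0920). ZNF446 and ZNF114 overlap exons of the opposite strand (SLC27A5 and ZNF114-AS1), and no strand setting is given for the counting, so that their values are uncertain. ZNF446 and ZNF548 share 34.1% and 23.6% of their exonic 50-base words with other annotated genes.

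**Figure D3:**
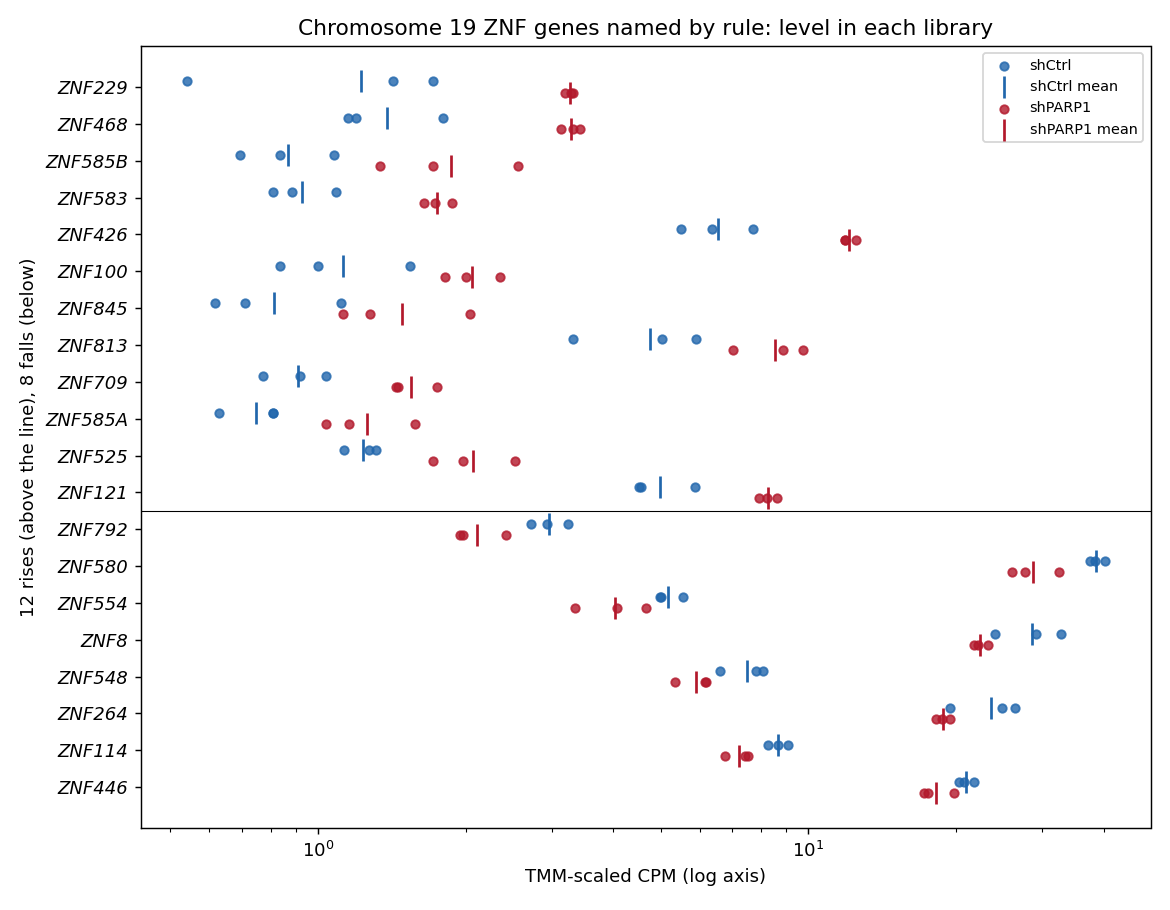
Each dot is one library's TMM-scaled CPM (log axis) for the 12 largest rises and the 8 falls that met the naming rule; upright bars are group means of 3 libraries. Separate groups were a condition of that rule. In all 20 genes the 3 shPARP1 libraries (red) therefore lie on one side of the 3 shCtrl libraries (blue). The gap is narrow for ZNF845, ZNF264 and ZNF446.

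Along the chromosome the 242 genes fell into 15 runs, a run ending where the next such gene lay more than 1 Mb away. The run from ZNF175 to ZNF331 (chr19:51571298-53580269) held 39 of the genes, and 16 of its 35 tested genes rose (45.7%), none fell, and the median log2 fold change was 0.39. At an unadjusted p under 0.05 in edgeR 0 of them were lower, and DESeq2 and limma-voom also called 0 lower. Without shPARP1 replicate 3, 11 of them were higher and 1 was lower. Only 2 other protein-coding genes were tested in this run, 1 of them higher and 1 lower. The last run, from ZNF628 to ZNF446 (chr19:55476332-58481230), held the most members. Of its 58 tested genes 16 were higher (27.6%) and 5 lower (8.62%), with a median log2 fold change of 0.09 and a median level of 6.06 CPM. The run from ZNF101 to ZNF254 (chr19:19668796-24129961) had 6 higher (22.2%) and 0 lower of 27, and the run from ZNF565 to ZNF573 (chr19:36182060-37817300) had 7 higher (30.4%) and 0 lower of 23. The run from ZNF575 to ZNF296 (chr19:43525497-45076588) had 3 higher (14.3%) and 0 lower of 21, although it holds ZNF229. The median levels of the runs that begin with ZNF101, ZNF565, ZNF575 and ZNF175 were 1.48, 1.65, 1.83 and 2.33 CPM. Falls were thus spread over 4 of the runs, with 5 of the 8 in the last one. Over all tested genes 27.3% were higher and 28.5% lower. The shares were 14.04% and 22.7% at 1 to 5 CPM, and 27.7% and 32.0% at 5 to 20 CPM. Whether the runs differ was not tested.

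**Figure D4:**
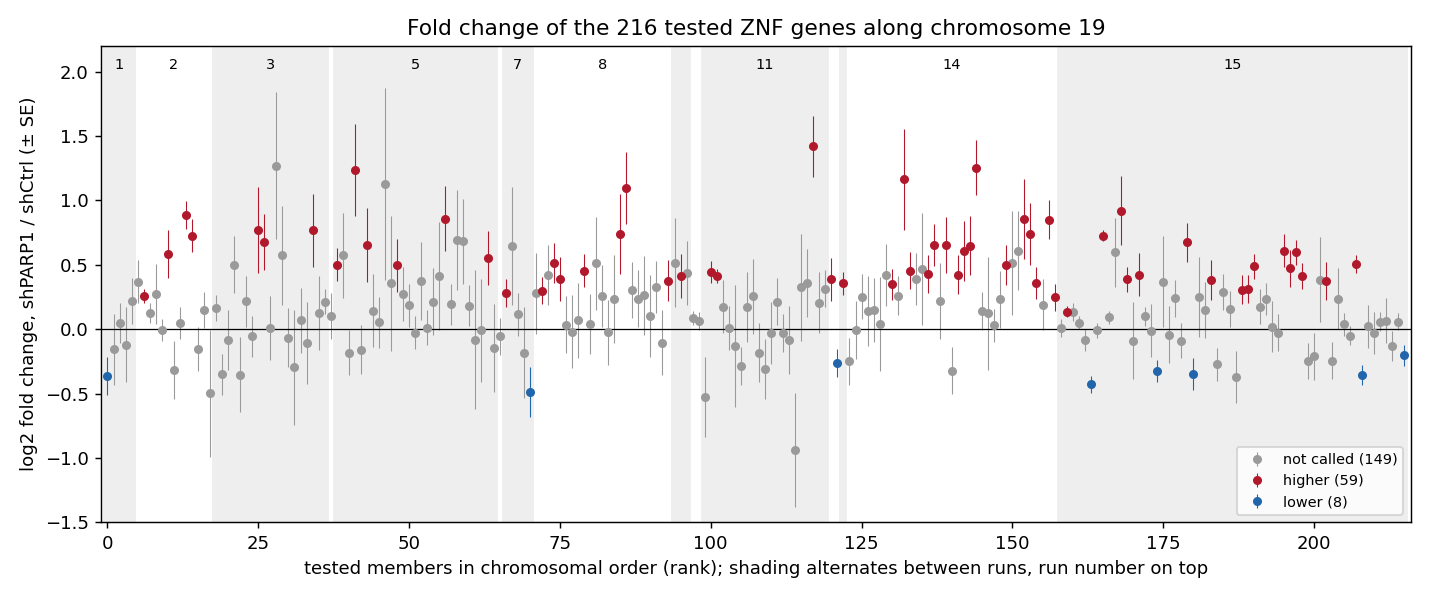
Log2 fold change (shPARP1 over shCtrl, ± SE) of the 216 tested ZNF genes in chromosomal order; shading alternates between runs, with the numbers of the larger runs on top. Run 14 (ZNF175 to ZNF331) has 16 called rises (red) and no called fall (blue), and run 15 has 16 rises and 5 falls.

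Of the 12 largest rises 4 came from the ZNF175 to ZNF331 run, namely ZNF468, ZNF813, ZNF845 and ZNF525. The last of these stood at 1.13, 1.31 and 1.27 CPM in shCtrl and at 1.97, 1.72 and 2.52 CPM in shPARP1 (log2 fold change 0.74, SE 0.24, adjusted p = 0.00737), and was not called without shPARP1 replicate 3 (adjusted p = 0.0846). ZNF845 stood at 0.710, 0.616 and 1.11 CPM in shCtrl and at 1.12, 2.04 and 1.28 CPM in shPARP1 (log2 fold change 0.85, SE 0.31, adjusted p = 0.0157). It was not called without shCtrl replicate 2 (adjusted p = 0.0575) or shPARP1 replicate 2 (0.206). Their promoters are shown because these genes moved together and their sequences are alike. Each line gives the 120 bases before the RefSeq start (GRCh38.p14), 5′ to 3′ on the gene's strand, and capitals mark the longest word that all 4 windows share. For ZNF468 the RefSeq start lies inside the longer gene extent given above.
ZNF468 (chr19:52857620-52857739, minus strand): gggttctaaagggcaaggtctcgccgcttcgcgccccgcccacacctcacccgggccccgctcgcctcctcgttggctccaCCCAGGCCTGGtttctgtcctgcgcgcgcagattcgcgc
ZNF845 (chr19:53333629-53333748, plus strand): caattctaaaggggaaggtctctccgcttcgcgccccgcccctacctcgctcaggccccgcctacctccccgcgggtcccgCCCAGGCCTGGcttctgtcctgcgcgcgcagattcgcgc
ZNF525 (chr19:53365585-53365704, plus strand): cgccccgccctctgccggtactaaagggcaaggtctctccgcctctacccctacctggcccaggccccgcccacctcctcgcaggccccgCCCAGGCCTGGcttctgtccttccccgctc
ZNF813 (chr19:53467613-53467732, plus strand): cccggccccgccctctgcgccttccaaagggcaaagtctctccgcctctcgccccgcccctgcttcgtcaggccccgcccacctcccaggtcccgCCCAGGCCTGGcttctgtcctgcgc

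The shared word CCCAGGCCTGG has 11 letters and was searched on both strands in the RefSeq promoter windows, which run from 250 bases before to 50 bases after a start. It was found in 10 of the 212 chromosome 19 ZNF genes that matched a promoter by symbol, against 88 of all 27305 genes (0.322%), and all 10 lie in the ZNF175 to ZNF331 run. Besides the 4 genes that defined it, ZNF701, ZNF611, ZNF765, ZNF808, ZNF320 and ZNF761 carry it. The first 3 of these rose, by 0.66, 0.42 and 0.36 on the log2 scale, with exons of ZNF701 and ZNF765 overlapping other genes on the opposite strand. The other 3 were not called (0.22, 0.14 and 0.19). The values of ZNF320 and ZNF808 are uncertain, since 99.5% and 28.9% of their exonic 50-base words recur in other annotated genes. In the same run 19 tested genes had a matched promoter without the word, of which 7 rose and none fell. The word was chosen from rising genes, so that these counts are a description of related promoters and not a comparison.

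Promoters of both other neighbouring pairs among the rises are alike as well. ZNF585A and ZNF585B share a word of 20 letters that no other promoter in the table holds, and ZNF426 and ZNF121 share one of 11 letters that contains the word TGACGTCA, known as the cyclic AMP response element. The longer word of ZNF426 and ZNF121 occurs in 61 of the 27305 genes (0.223%), 3 of them chromosome 19 ZNF genes, of which 2 rose and 1 was not called. TGACGTCA itself occurs in 8 of 212 chromosome 19 ZNF genes (3.77%), 2.25% of all genes, 4.35% of the ZNF genes of other chromosomes and 4.44% of the other coding genes of chromosome 19. The shared words are again in capitals, and the window of ZNF585B lies inside its annotated extent, chr19:37181579-37218153.
ZNF585A (chr19:37172696-37172815, minus strand): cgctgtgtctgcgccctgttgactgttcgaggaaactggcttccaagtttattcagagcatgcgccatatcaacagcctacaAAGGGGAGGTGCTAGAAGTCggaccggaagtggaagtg
ZNF585B (chr19:37210537-37210656, minus strand): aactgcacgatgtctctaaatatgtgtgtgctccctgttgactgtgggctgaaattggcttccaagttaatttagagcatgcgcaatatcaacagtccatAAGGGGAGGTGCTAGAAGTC
ZNF426 (chr19:9538646-9538765, minus strand): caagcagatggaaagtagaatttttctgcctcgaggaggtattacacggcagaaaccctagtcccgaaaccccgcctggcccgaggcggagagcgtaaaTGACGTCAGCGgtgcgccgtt
ZNF121 (chr19:9584505-9584624, minus strand): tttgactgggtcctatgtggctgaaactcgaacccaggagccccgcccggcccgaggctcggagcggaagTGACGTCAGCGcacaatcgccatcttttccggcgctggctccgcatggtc

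Over all 212 matched promoters, short words set the ZNF genes of chromosome 19 beside other genes. CCGGAAG, a core recognised by ETS factors, was present in 99 of 212 (46.7%), against 12.2% of all genes, 37.2% of the ZNF genes of other chromosomes and 17.6% of the other coding genes of chromosome 19. It was present in 31 of 53 higher, 3 of 7 lower and 59 of 133 uncalled ZNF genes. CCAATCA, a word picked after the ZNF promoters had been scanned, was present in 63 of 212 (29.7%) against 8.35% of all genes. It was present in 16.4% of the ZNF genes of other chromosomes and 10.0% of the other coding genes of chromosome 19. Of the chromosome 19 ZNF genes, 11 of 53 higher, 0 of 7 lower and 43 of 133 uncalled genes held it. TATAAA was present in 3.30%, against 13.99% of all genes, 7.25% of the ZNF genes of other chromosomes and 6.98% of the other coding genes of chromosome 19. GGGCGG was present in 70.8%, against 48.3% of all genes, 65.2% of the ZNF genes of other chromosomes and 77.3% of the other coding genes of chromosome 19. All words were searched on both strands, in windows of the same length. A match describes these letters only.

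The most abundant ZNF genes behaved unequally. On the per-length scale the highest was ZNF787, a gene of 7 zinc fingers without a KRAB start, with 24.9 ± 0.974 FPKM in shCtrl and 42.4 ± 1.70 FPKM in shPARP1 (SD, n = 3). It stood at 103, 92.4 and 98.7 CPM in shCtrl and at 167, 164 and 154 CPM in shPARP1, without overlap (log2 fold change 0.72, SE 0.04, adjusted p = 4.87e-22), and passed under all 18 alternatives. ZNF444, the next highest, had 29.7 ± 1.80 FPKM in shCtrl and 32.6 ± 1.15 FPKM in shPARP1. Its CPM of 75.8, 66.7 and 67.6 in shCtrl and 77.5, 71.9 and 73.9 in shPARP1 overlapped, and it was not called (log2 fold change 0.09, SE 0.05, adjusted p = 0.111). With library totals as the scaling, and with the length and GC correction, it was called higher (adjusted p = 0.0263 and 1.89e-06), as it was with the correction and the replicate block together (3.29e-07) and without shCtrl replicate 1 (0.0134). ZNF428 had 23.4 ± 0.848 FPKM in shCtrl and 32.1 ± 1.19 FPKM in shPARP1. It stood at 39.2, 38.5 and 36.6 CPM in shCtrl and at 52.8, 50.2 and 48.8 CPM in shPARP1 (log2 fold change 0.41, SE 0.06, adjusted p = 6.37e-09). Its 3 knockdown libraries were all higher, but its exons overlap SRRM5 on the opposite strand and 20.4% of its 50-base words recur elsewhere. For comparison, the median of the 241 ZNF genes with an FPKM value was 0.422 FPKM over 6 libraries.

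Members with well studied functions mostly did not pass the test. ZNF91 and ZNF93, which repress retrotransposons, had log2 fold changes of 0.18 (SE 0.16, adjusted p = 0.342) and -0.16 (SE 0.19, adjusted p = 0.508). ZNF274, which directs histone methylation to the 3′ ends of other ZNF genes, stood at 24.4, 25.05 and 25.4 CPM in shCtrl and 23.3, 23.9 and 25.1 CPM in shPARP1. Its groups overlapped (log2 fold change -0.05, SE 0.07, adjusted p = 0.579), and the sign turned with the length and GC correction. ZNF224, a repressor first described at the aldolase A gene, had a log2 fold change of -0.31 (SE 0.23, adjusted p = 0.264), and shares 48.3% of its exonic 50-base words with other annotated genes. ZNF420, a regulator of p53, had one of 0.23 (SE 0.34, adjusted p = 0.590) at under 1 CPM. ZNF331, an imprinted gene at the end of its run, stood at 9.11, 10.0 and 7.88 CPM in shCtrl and at 11.02, 10.8 and 10.2 CPM in shPARP1 (log2 fold change 0.25, SE 0.10, adjusted p = 0.0371). Its groups lay next to each other, and it was not called without shCtrl replicate 1 (adjusted p = 0.0664), shCtrl replicate 3 (0.224), shPARP1 replicate 1 (0.107) or shPARP1 replicate 2 (0.0902).

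A KRAB domain was sought by a strict pattern anywhere in the protein and by a looser one in the first 150 residues. Of the 241 genes with an annotated coding sequence, 175 had the strict pattern and 18 more only the looser one. Both patterns may pass over KRAB proteins, so that genes with neither are not a class without a KRAB domain. Of the 158 tested genes with the strict pattern 45 were higher (28.5%) and 6 lower (3.80%), with a median log2 fold change of 0.24. Of the 15 tested genes with the looser pattern alone 1 was higher (6.67%) and 0 lower (median -0.03). All 18 genes of this class but ZNF99 lie in the ZNF575 to ZNF296 run, so that class and run cannot be told apart. Of the 43 tested genes with neither pattern 13 were higher (30.2%) and 2 lower (4.65%), with a median of 0.13. Over all tested genes 27.3% were higher and 28.5% lower. The median levels of these classes were 2.33, 1.60 and 9.49 CPM, and a gene with few counts is called less often. By number of zinc fingers, which had a median of 12 and a range from 0 to 32, genes with at most 7 fingers held 5 of the 8 falls. That is 16.7% of the 30 tested, with 9 rises (30.0%). Genes with 16 or more fingers had 17 rises (32.1%) and 0 falls among 53 tested. Their median level was 1.88 CPM, against 8.30 CPM in genes with at most 7 fingers. By GC content of the longest transcript, genes under 40% had 16 rises (26.7%) and 0 falls among 60 (median 0.34). Those of 40% to 50% had 37 rises (30.1%) and 5 falls (4.07%) among 123 (0.21). Those of 50% or more had 6 rises (18.2%) and 3 falls (9.09%) among 33 (0.06). The median levels were 1.59, 3.06 and 22.9 CPM in that order. Whether the classes differ was not tested. The median GC content was 42.4%, against 49.1% over all tested genes. With a correction for exon length and GC content 66 ZNF genes were higher and 8 lower, with 54 of the 59 rises and 6 of the 8 falls kept. The 130 tested genes with under 20% of shared 50-base words and no exon overlap on the opposite strand had 36 rises and 4 falls and a median of 0.21, the same median as all 216.

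The partners of KRAB proteins changed in both directions. Of 39 co-repressor and heterochromatin genes, all tested, 15 were higher (38.5%), 11 lower (28.2%) and 13 not called, with a median log2 fold change of 0.05. Over all tested genes the shares were 27.3% and 28.5%, and over those of 20 CPM or more, where the list's median level of 56.2 CPM lies, 42.2% and 37.6%, so that the list's counts do not stand out from the background. TRIM28 itself, the scaffold that binds KRAB domains, stood at 1342, 1349 and 1307 CPM in shCtrl and at 1393, 1351 and 1289 CPM in shPARP1, with overlapping groups (log2 fold change 0.01, SE 0.03, adjusted p = 0.746). SETDB1, the methyltransferase it recruits, fell from 45.5, 44.6 and 47.8 CPM to 36.6, 34.9 and 42.3 CPM without overlap (log2 fold change -0.28, SE 0.06, adjusted p = 9.56e-05). Both are named as core partners and after their values were seen. The 4 genes with the smallest p in the list all rose and kept their calls under the 18 alternatives. GATAD2A and MTA1, subunits of the NuRD deacetylase complex, rose from 72.4 ± 0.890 to 140.0 ± 2.24 CPM (log2 fold change 0.95, adjusted p = 2.13e-27) and from 146.8 ± 6.66 to 237.6 ± 3.88 CPM (0.70, adjusted p = 2.50e-23). The deacetylase HDAC1 rose from 123.1 ± 3.07 to 182.7 ± 3.66 CPM (0.57, adjusted p = 2.58e-19), and SUMO2, a small modifier, from 112.8 ± 2.65 to 161.6 ± 4.41 CPM (0.52, adjusted p = 3.36e-17; all SD, n = 3 per group). In the same complex the helicase CHD4, chosen after its values were seen, fell by 0.27 on the log2 scale (SE 0.03, adjusted p = 8.47e-10).

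Zinc finger genes of chromosome 19 with other names (ZFP, ZSCAN, ZIM, ZIK1 and PEG3) were called about as often as other genes of their level. Of the 13 that were listed, 8 were tested, 2 were higher, 1 was lower and 5 were not called. The median log2 fold change of the 8 was 0.35, with a range from -0.36 to 0.49. The 3 calls are 37.5% of those tested, against 55.7% of all tested genes and 36.7% of those at 1 to 5 CPM, where the list's median of 2.67 CPM lies. ZSCAN5A went from 5.58 ± 0.969 to 7.36 ± 0.920 CPM (log2 fold change 0.40, SE 0.13, adjusted p = 0.00755), and was not called without shCtrl replicate 2 (0.0881) or shPARP1 replicate 3 (0.0557). ZIK1 went from 2.08 ± 0.517 to 2.88 ± 0.348 CPM with overlapping groups (log2 fold change 0.46, SE 0.20, adjusted p = 0.0471). It was not called without shCtrl replicate 1 (0.262), shCtrl replicate 3 (0.0527), shPARP1 replicate 2 (0.149) or shPARP1 replicate 3 (0.119). ZSCAN18 went from 52.5 ± 1.48 to 48.2 ± 1.27 CPM (log2 fold change -0.12, SE 0.05, adjusted p = 0.0376, SD with n = 3 per group for all 3 genes). Its sign turned with the length and GC correction, and each omission of a library but that of shCtrl replicate 3 ended its call (0.0529 to 0.180).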

How the data were processed

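RNA of 3 shPARP1 and 3 shCtrl samples of HK-2 cells was sequenced with a stranded kit in paired-end mode, per the labels. The authors deposited whole-number read counts per gene, not normalized, and FPKM values for the same 6 libraries. The submitters' processing notes name GRCh38, bcl2fastq, TopHat2 and edgeR. How reads were counted, with which strand setting and annotation, is not given in the sources used here. Reads shared by near-identical or overlapping genes may therefore have been split or dropped.

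The deposited counts were fitted with edgeR 4.0.16 in R 4.3.3 (filterByExpr, TMM, robust quasi-likelihood F test, Benjamini-Hochberg over 16040 genes, called at adjusted p under 0.05). The fit was tried on simulated counts in which far fewer genes differed than were called here. That trial does not show how the test behaves when so many genes differ. CPM are TMM-scaled. Positions, exon lengths, GC content, coding sequences and shared 50-base words came from GENCODE release 29, and promoters from RefSeq (GRCh38.p14), matched by symbol for 212 of 242 genes. The 50-base words of a gene were those of its transcript with the longest coding sequence. GC content was that of the longest transcript. Alternatives were other scalings and filters, DESeq2 1.42.0, a likelihood-ratio test in edgeR, limma 3.58.1 (voom, and log2 of FPKM plus 1 or 0.1), a length and GC correction, a replicate block, and omission of each library in turn. A fold change on the log2(FPKM + pseudocount) scale understates the change of low genes.

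The members and lists were chosen with earlier results of these data known. Named by rule were PARP1; the 12 largest rises and up to 12 falls among called genes of at least 1 CPM with groups that did not overlap (53 rises and 8 falls were eligible); the 3 highest in FPKM; 6 genes of known role; and up to 4 called genes of each of the lists of co-repressors and of other zinc finger genes. Genes outside this rule are named as such.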

Additional observations from a re-analysis of the deposited data

How the results depend on the processing

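On the FPKM scale fewer genes passed. With log2(FPKM + 1) and log2(FPKM + 0.1), 27 and 27 chromosome 19 ZNF genes were higher and 1 and 1 lower, and the medians were 0.064 and 0.179. For ZNF genes of other chromosomes the counts were 29 and 31 higher and 18 and 21 lower, for co-repressors 7 and 7 lower, and for the ZNF175 to ZNF331 run 3 and 4 higher. At 1 to 5 CPM they were 7 and 5 higher and 0 and 0 lower, and at 5 to 20 CPM 0 and 0 lower, with 13 higher for log2(FPKM + 1). Falls numbered 5 with library totals, 5 with no filter on low counts and 5 with DESeq2. At 1 to 5 CPM these settings gave 1, 0 and 0 falls, with 19 rises in DESeq2, and library totals and no filter gave 1 and 1 fall at 5 to 20 CPM. The median was 0.24 with library totals, 0.19 with no filter and 0.19 with at least 1 CPM in 3 libraries. Leaving out each library gave 41 to 54 rises and 4 to 10 falls, a median of 0.17 to 0.21, 11 to 16 rises and 0 to 1 falls in the run, 18 to 26 rises and 0 to 4 falls at 1 to 5 CPM, and 16 to 20 rises and 0 to 2 falls at 5 to 20 CPM. The causes were not tested. With the length and GC correction ZNF274 and ZSCAN18 turned to 0.0860 and 0.0403, and to 0.0867 and 0.0407 with the replicate block added.

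With the replicate block 62 ZNF genes were higher and 9 lower, and all 59 and 8 of the main calls were among them. Replicate numbers did not pair the libraries: same-numbered libraries correlated at 0.036, -0.0042 and 0.036 in their deviations from the group means, and not every library correlated best with its own number. The 26 genes left out by the filter, with at most 56 counts in all, were not tested in the main analysis. No detection limit was measured for them.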

Other observations

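The table also lists 19 chromosome 19 genes with ZNF symbols that are not protein-coding (antisense RNAs, other noncoding RNAs and pseudogenes). Of the 13 that could be tested, 4 were higher in shPARP1 (30.8%, near the 27.3% of all tested genes) and 0 were lower, also at an unadjusted p under 0.05. ZNF542P, annotated as a pseudogene, stood at 10.9, 7.94 and 12.6 CPM in shCtrl and at 27.6, 26.96 and 24.98 CPM in shPARP1, and passed with a log2 fold change of 1.34 (SE 0.10, adjusted p = 7.74e-14, edgeR quasi-likelihood test). ZNF529-AS1, ZNF528-AS1 and ZNF667-AS1 rose by 0.61, 0.47 and 0.36 on the log2 scale (adjusted p = 0.0129, 0.0351 and 0.00684). Without a stated strand setting, reads of these antisense genes and of the genes they overlap cannot be told apart. These genes were chosen after their values were seen.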
